A study of Gallus gallus with 6 samples.

Results

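8 antiviral effector genes were followed across the livers of 6 chickens: Mx, EIF2AK2, ADAR, CMPK2, IFI27L2, LY6E, TRIM25 and SAMHD1. They were chosen with earlier results of these data known and were found by gene symbol, without regard to case. Each matched 1 row among the 14481 protein-coding genes of the deposited expression table. Total RNA from liver was sequenced from 3 birds labelled resistant and 3 labelled susceptible to ALV-J, the avian leukosis virus of subgroup J and a chicken retrovirus. The labels name no genotype, breed, age, sex, treatment, time or infection status, so the groups are known only as resistant and susceptible birds. Each library is 1 bird, and its value is given as FPKM, the fragments of a gene scaled to transcript length and to sequencing depth. FPKM allows for transcript length, so levels can be set side by side between genes.

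Interferons are secreted when a cell senses viral nucleic acid, and they signal through surface receptors and transcription factors to switch on a large set of interferon-stimulated genes. Antiviral effectors are the products of such genes that act on the virus or on the processes it uses: its RNA, its nucleotide supply, its entry or its translation. In mammals most of the 8 genes are induced by interferon, with a resting level in unstimulated tissue that differs from gene to gene. Chickens lack the gene for the RNA sensor RIG-I, which in mammals is a substrate of TRIM25.

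The scaled counts deposited beside the FPKM correspond to between 3831110 and 6623024 fragments in a bird. Between 6671 and 9424 genes stood above 0, the fewest in susceptible 2, where 26.4% of genes with a mean FPKM of 5 to 10 were listed at 0, against 3.11% to 15.5% in the other birds. A listed 0 can be a failed estimate: ALB, serum albumin, held 24858 FPKM or more in 4 birds but a listed 0 in resistant 2 and susceptible 3. TTR, a plasma carrier made by hepatocytes, had at least 3673 FPKM in every bird. Fragments on chromosome W, which hens carry, numbered between 145 and 427 in resistant 1 and 2 and susceptible 1 and 2, and 0 in resistant 3 and susceptible 3.

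7 of the 8 genes had a higher mean log2 level in resistant livers, SAMHD1 being the exception, but no difference passed the test. With limma on log2(FPKM + 1) and Benjamini-Hochberg adjustment over 9626 genes tested, 0 of the 8 genes had an adjusted p under 0.05, as had 0% of all genes tested. At an unadjusted p under 0.05 the count was also 0 of 8, against 3.87% of all genes tested, 373 in number. The unadjusted p of the 8 genes lay between 0.0639 and 0.316, and the adjusted p of each was 0.984. A higher mean log2 level in resistant birds was seen for 52.8% of all genes tested. The median log2 fold change was 1.04 over the 8 genes and 0.05 over all genes tested. As the 8 genes were chosen with earlier results known, these contrasts with all genes, and those below, are descriptions only. The p-values rest on the spread from bird to bird, and a p that misses the threshold does not show that the groups were alike. In bulk liver, fewer cells of a type and less RNA per cell cannot be told apart.

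**Figure D1:**
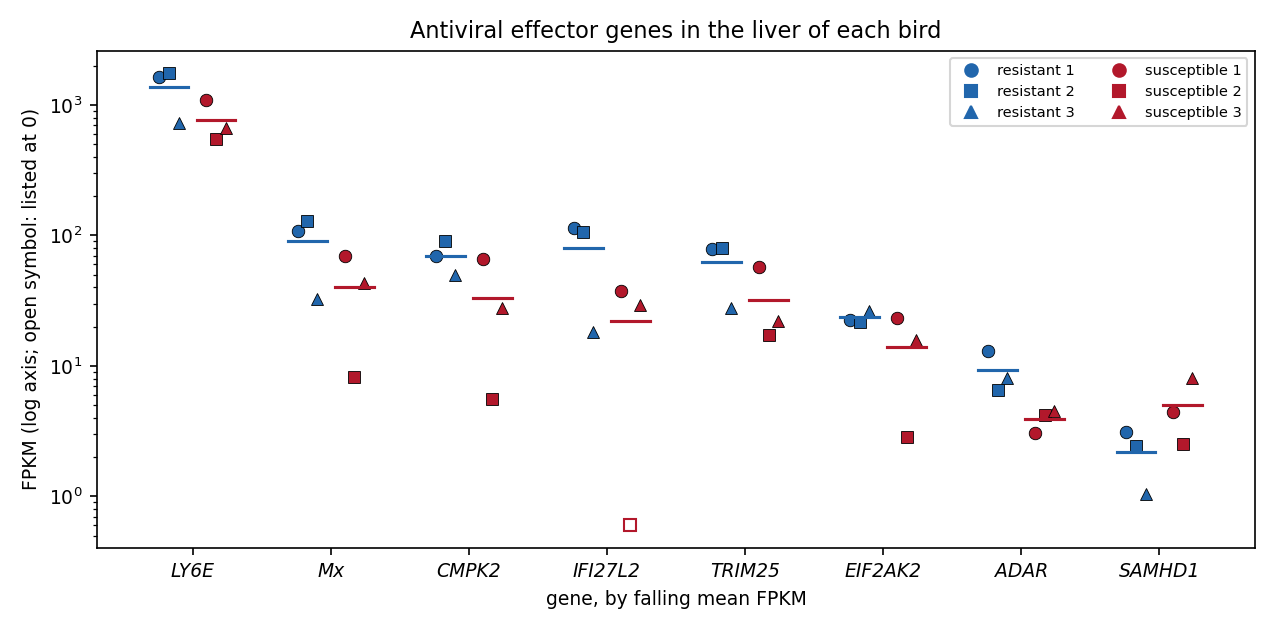
FPKM of each of the 8 genes in each bird on a log axis, resistant birds in blue and susceptible birds in red, with horizontal bars at the group means and an open symbol for the value listed at 0. Susceptible 2 is the lowest bird for 6 of the 8 genes, and ADAR alone has all resistant birds above all susceptible birds.

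The levels of the 8 genes covered a wide range. LY6E stood far above the rest, with a mean of 1072 FPKM over the 6 birds, and exceeded Mx, at 65.3, in 6 of 6 birds. Mx exceeded CMPK2, at 51.6, in 5 of 6 birds. CMPK2, IFI27L2 and TRIM25, at 51.6, 51.0 and 47.3 FPKM, were not separated by their spread: each exceeded the next in only 3 of 6 birds. TRIM25 exceeded EIF2AK2, at 18.8, in every bird, and EIF2AK2 exceeded ADAR, at 6.58, in 5 of 6. SAMHD1 had the lowest mean, at 3.60 FPKM, but lay above ADAR in susceptible 1 and 3.

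EIF2AK2 and ADAR act on double-stranded RNA. EIF2AK2 encodes the kinase PKR, which binds double-stranded RNA and halts translation by phosphorylating the initiation factor eIF2 alpha. In the galGal4 build it is at chr3:31347176-31365169, on the plus strand. The resistant livers held 22.4, 21.7 and 26.6 FPKM, and the susceptible livers 23.5, 2.86 and 15.8. The resistant birds and susceptible 1 lay close together, and susceptible 2 was far below all others, so the groups overlapped. The value in susceptible 2 rests on about 36 fragments, with an exact 95% Poisson interval of 2.01 to 3.96 FPKM that covers counting error only. The group means were 23.6 ± 2.62 for resistant and 14.0 ± 10.4 for susceptible livers (SD, n = 3), and the log2 fold change was 1.07 (SE 0.71). Without susceptible 2 it was 0.27.

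ADAR encodes the enzyme that edits adenosine to inosine in double-stranded RNA, which in mammals also keeps the cell's own RNA from being sensed as foreign. Its galGal4 position is chr25:1239380-1249280, minus strand. In birds 1 to 3 it reached 13.0, 6.54 and 8.08 FPKM on the resistant side and 3.08, 4.22 and 4.55 on the susceptible side. Every resistant bird lay above every susceptible bird, and susceptible 1 rather than susceptible 2 was the lowest. Among all genes tested 4.44% had such an arrangement with resistant birds higher, and 1 of the 8 genes here. The counting intervals of the nearest birds of the 2 groups, 5.64 to 7.55 FPKM in resistant 2 and 3.67 to 5.56 in susceptible 3, narrowly did not meet. They cover counting error within a bird only, not the spread from bird to bird, and do not test the groups. The means were 9.22 ± 3.39 and 3.95 ± 0.77 (SD, n = 3), with a log2 difference of 1.01 (SE 0.69, limma unadjusted p = 0.173). Without susceptible 2 the log2 fold change was 1.05, so the difference in ADAR was as large without that bird.

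SAMHD1 and CMPK2 act on nucleotides, and their values went in opposite directions. SAMHD1 encodes a triphosphohydrolase that breaks down deoxynucleotides, the building blocks of reverse transcription, and in human myeloid cells it restricts HIV. The gene spans chr20:597387-623826, minus strand. Levels were 3.11, 2.42 and 1.04 FPKM for resistant 1 to 3, against 4.41, 2.52 and 8.10 for susceptible 1 to 3. Susceptible 3 was the highest bird and resistant 3 the lowest, while resistant 1 lay above susceptible 2, so the groups overlapped. These values rest on between 18 and 197 fragments a bird. The interval for the 18 fragments of resistant 3 was 0.616 to 1.64 FPKM and that of susceptible 3 was 7.01 to 9.31. The means were 2.19 ± 1.06 and 5.01 ± 2.84 (SD, n = 3), with a log2 difference of -0.86 (SE 0.82). It was -1.20 without susceptible 2 and -0.51 without susceptible 3.

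CMPK2 encodes a mitochondrial kinase of cytidine and uridine monophosphate, among the strongly interferon-induced genes of mammals. The gene is at chr3:94575875-94584183, on the minus strand. The resistant livers held 69.4, 91.3 and 49.7 FPKM, and the susceptible livers 65.9, 5.58 and 27.8. Susceptible 2 lay at 0.108 of the mean of the 6 birds, and susceptible 1 fell among the resistant birds. Its highest bird had 16.4 times the level of its lowest, the widest such range among the 7 genes with no listed 0. The log2 fold change was 1.57 (SE 0.75, 95% interval -0.11 to 3.24), and CMPK2 had the smallest unadjusted limma p of the 8 genes, 0.0639. Without susceptible 2 the log2 fold change was 0.65 (interval -0.56 to 1.87).

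Mx encodes a dynamin-like GTPase, known in mammals for blocking influenza and related viruses. It maps to chr1:108280289-108296301, plus strand. In birds 1 to 3 it reached 108, 130.1 and 32.7 FPKM on the resistant side and 69.6, 8.15 and 43.2 on the susceptible side. Resistant 1 and 2 were the highest, but resistant 3 lay below susceptible 1 and 3. The value in susceptible 2 rests on about 80 fragments, with an interval of 6.46 to 10.1 FPKM, well below the next bird. The means were 90.3 ± 51.1 and 40.3 ± 30.8 (SD, n = 3). The log2 fold change of Mx was 1.36 (SE 0.78) with all birds and 0.49 (SE 0.66) without susceptible 2.

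LY6E and IFI27L2 encode small membrane proteins. LY6E is held on the cell surface by a lipid anchor and in mammals alters the entry of several enveloped viruses. Its position is chr2:147927176-147933270, minus strand. Levels were 1638, 1749 and 728 FPKM for resistant 1 to 3, against 1097, 552 and 667 for susceptible 1 to 3. Resistant 1 and 2 were above the rest, and resistant 3 fell between susceptible 1 and susceptible 3. The ratio of the highest bird to the lowest was 3.17, the smallest of the 7 genes with no listed 0, and between 2189 and 12413 fragments a bird stood behind it. The means were 1372 ± 560.3 and 772 ± 287 (SD, n = 3), with a log2 difference of 0.79 (SE 0.47), and of 0.58 without susceptible 2.

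IFI27L2 belongs to the ISG12 family, whose mammalian members sit in membranes inside the cell. The table places it at chr23:4295102-4296014, plus strand. The resistant livers held 115, 106 and 18.1 FPKM, and the susceptible livers 37.2, 0 and 29.5. Resistant 1 and 2 were above all others, resistant 3 was below susceptible 1 and 3, and susceptible 2 was listed at 0, which is not read as absence. Only 25 fragments stood behind the value of resistant 3. The log2 fold change of 2.56 (SE 1.29), the highest of the 8 genes, turned on the listed 0: it was 0.86 when that value was treated as missing.

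TRIM25 encodes a ubiquitin ligase of the tripartite motif family that in mammals promotes RNA sensing through RIG-I. The coordinates are chr18:6254682-6261401, minus strand. In birds 1 to 3 it reached 78.5, 80.7 and 28.0 FPKM on the resistant side and 57.2, 17.2 and 22.0 on the susceptible side. The order of the birds was that of LY6E: resistant 2 and 1, susceptible 1, resistant 3, susceptible 3 and susceptible 2. The means were 62.4 ± 29.8 and 32.1 ± 21.8 (SD, n = 3). The log2 fold change of TRIM25 was 0.98 (SE 0.59), and 0.65 without susceptible 2.

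The 8 genes differed in which birds were low. Susceptible 2 was the lowest bird for 6 of them, all but ADAR and SAMHD1. Among the 4993 genes tested that stood above 0 in all 6 birds, susceptible 2 was the lowest for 20.5%. IFI27L2, one of the 6 and listed at 0 in susceptible 2, is not among those 4993 genes. Susceptible 2 had the most genes at 0, and all genes with a listed 0 are left out of that share. The share can thus be too low for this bird, and that over all genes tested was not computed. Relative to the mean of the birds on the log2(FPKM + 1) scale, susceptible 2 lay at -2.42 for Mx, -2.61 for CMPK2 and -2.13 for EIF2AK2. For LY6E and TRIM25 it lay at -0.81 and -1.16, and for ADAR and SAMHD1 at -0.41 and -0.23. The median over those 4993 genes in that bird was -0.03. The low level in susceptible 2 was thus uneven across the 8 genes.

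A ratio of genes within a bird does not depend on how the library was scaled. The ratio of Mx to LY6E was between 0.0449 and 0.0744 in the other 5 birds and 0.0148 in susceptible 2. The ratio of CMPK2 to LY6E was between 0.0417 and 0.0682 in the other birds and 0.0101 in susceptible 2. The ratio of TRIM25 to LY6E ran from 0.0312 to 0.0522 over all 6 birds. TRIM25 and LY6E also had the closest patterns of any pair of the 8 genes, with a root mean square distance of 0.26 between their log2 deviations, and Mx and CMPK2 came next with 0.43. IFI27L2 and SAMHD1 were the farthest apart, at 2.28.

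**Figure D2:**
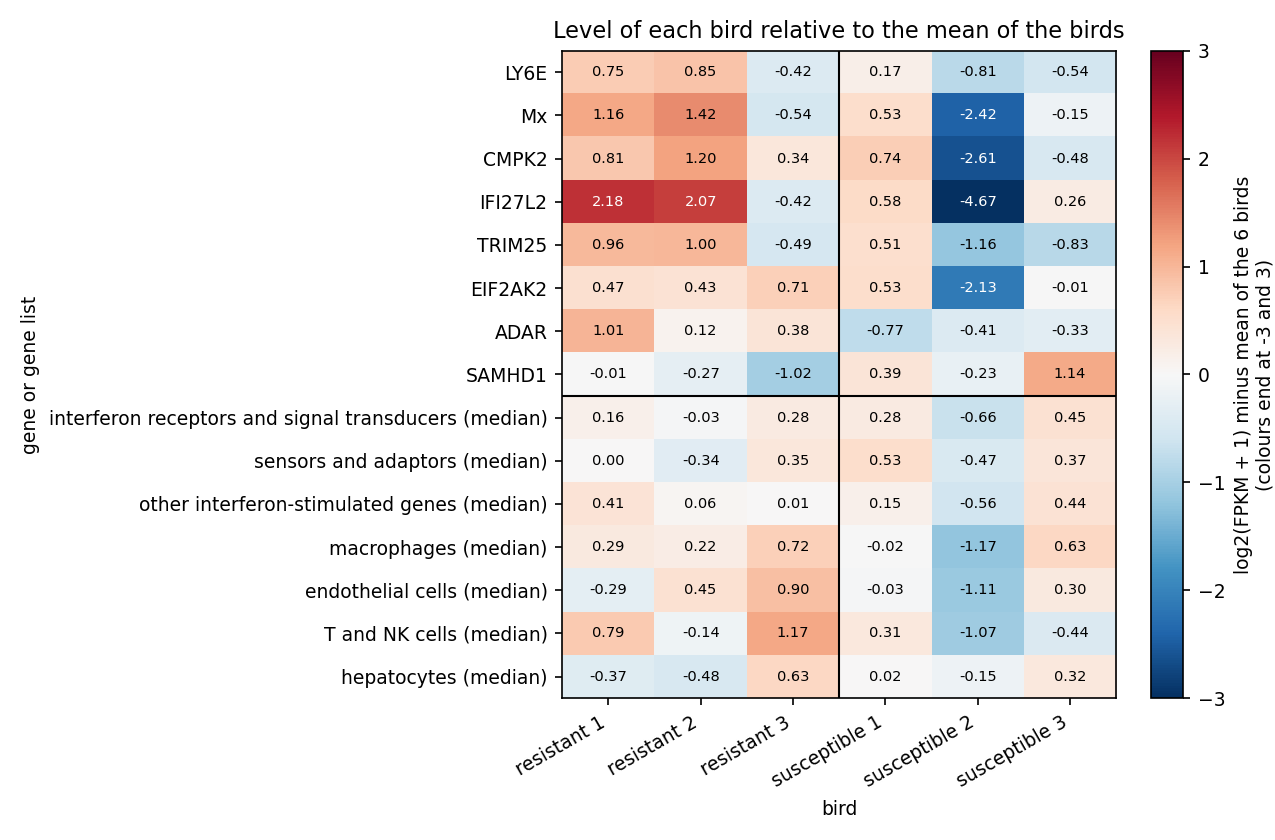
Level of each bird as log2(FPKM + 1) minus the mean of the 6 birds, for the 8 genes (upper rows) and as the median over lists of related genes and cell type markers (lower rows). Susceptible 2 is low for Mx, CMPK2, EIF2AK2 and IFI27L2 and also for the medians of macrophage, endothelial and T and NK cell markers, and at -0.15 for hepatocyte markers. Its T and NK cell median rests on markers listed at 0. Susceptible 2 is also the lowest bird for the medians of the interferon lists. These are -0.56 for other interferon-stimulated genes, -0.66 for receptors and signal transducers and -0.47 for sensors and adaptors.

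Markers of macrophages, endothelial cells and T and NK cells had low medians in susceptible 2, with exceptions among their members. Those of B and plasma cells did not. Of 12 macrophage markers listed, 7 were in the table, and their median in susceptible 2 was -1.17. Their summed FPKM was 384 to 516 in resistant birds and 173 to 515 in susceptible birds, the 173 being susceptible 2. Of the 6 macrophage markers above 0 in all birds, susceptible 2 was the lowest bird for 4. CTSS, a lysosomal protease, was at 48.4 FPKM there and between 67.4 and 195 in the other birds, and C1QB, a complement subunit made by macrophages, was listed at 0 in susceptible 2 alone. TIMD4 was lowest in susceptible 1, at 36.1 against 42.0 in susceptible 2, and C1QA, at 28.8 in susceptible 2, was lowest in resistant 3. The 9 endothelial markers, all in the table, had a median of -1.11 in susceptible 2 and summed to 113 to 327 FPKM in resistant and 96.7 to 190.2 in susceptible birds. The 12 T and NK cell markers, all in the table, summed to 22.5 to 89.0 FPKM in resistant and 26.9 to 64.1 in susceptible birds. The lowest sum was in resistant 2, but the median of the 8 tested was lowest in susceptible 2, at -1.075. That median rests on listed 0s, which can be failed estimates: ZAP70, IL2RB, GZMA, CD247, CD8A and PRF1 were at 0 there. Only 1 marker of this list, CD3E, was above 0 in all birds, and susceptible 2 was not its lowest bird. CD247 alone of the T and NK cell markers had an unadjusted limma p under 0.05, at 0.0338, with an adjusted p of 0.984. Its lowest resistant value was 6.49 FPKM, against 5.85 in susceptible 1 and a listed 0 in susceptible 2 and 3. CD247 had all resistant birds above all susceptible birds, as had 4.44% of all genes tested, and no marker of this list had the reverse. CD8A is not counted here. It was listed at 0 in each susceptible bird and passed the filter on low values only through its resistant birds. GZMA, ZAP70 and IL2RB were listed at 0 in susceptible 2 alone, ZAP70 and IL2RB being named after their values were seen. CD3E, a chain of the T cell receptor complex, stood at 10.2 FPKM in susceptible 2 and was lowest in resistant 2, at 2.91. CD3D had a listed 0 in both resistant 2 and susceptible 1, stood at 16.7 FPKM in susceptible 2 and was highest in susceptible 3, at 46.9. The 4 B and plasma cell markers found of 6 listed summed to 7.17 to 15.7 FPKM in resistant and 0 to 20.5 in susceptible birds, most of it BLNK. Their median, which rests on BLNK alone, was 0.26 in susceptible 2 and lowest in susceptible 3. HBE, the only red cell marker in the table, was listed at 0 in every bird. The 9 hepatocyte markers found had a median of -0.15 in susceptible 2. Median log2 fold changes were 0.93 for T and NK cell, 0.67 for macrophage, 0.55 for endothelial and -0.17 for hepatocyte markers. Those of the 8 genes and of all genes tested were 1.04 and 0.05. The T and NK cell medians, with and without susceptible 2, include CD8A and PRF1. Both were listed at 0 in every susceptible bird and passed the filter on low values only through resistant birds, which raises these medians. Without susceptible 2 the marker medians were 0.63, 0.23, 0.21 and -0.25, beside 0.61 for the 8 genes and -0.06 over all genes. BLNK was at 0.93, and at 1.30 without that bird. The part of these cell types in the levels of the 8 genes was not tested.

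Leaving out susceptible 2 kept the direction of all 8 genes and reduced the difference for 6 of them. The median log2 fold change over the 8 genes was then 0.61, beside -0.06 over all genes tested, and 7 of 8 genes were higher in resistant birds, against 46.8% of all genes. ADAR and SAMHD1 were the 2 genes whose difference was no smaller without that bird. ADAR remained the 1 gene of the 8 with no overlap and higher resistant birds, an arrangement that 7.43% of all genes had among these 5 birds. No gene passed limma at an adjusted p under 0.05 in these 5 birds, and 4.77% of genes had an unadjusted p under 0.05. None of those were among the 8 genes, whose unadjusted p lay between 0.156 and 0.526.

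**Figure D3:**
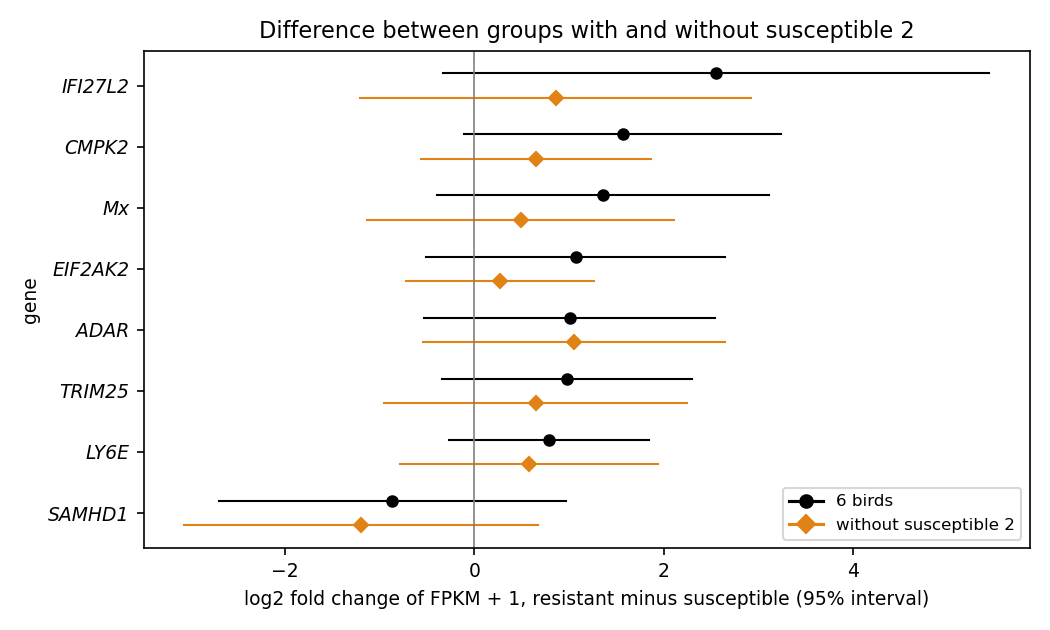
Log2 fold change of FPKM + 1, resistant minus susceptible, with its 95% limma interval, for each gene with all 6 birds (black circles) and without susceptible 2 (orange diamonds). Every interval includes 0 in both fits, and the estimates of IFI27L2, CMPK2, Mx and EIF2AK2 move most.

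Resistant 3 and susceptible 1 also stood apart from their groups. Susceptible 1 was the highest susceptible bird for Mx, EIF2AK2, CMPK2, IFI27L2, LY6E and TRIM25 and the lowest bird of all for ADAR, and without it the median log2 fold change of the 8 genes was 1.54, beside 1.33 without resistant 3. Resistant 3 had the lowest value of the resistant birds for Mx, CMPK2, IFI27L2, LY6E, TRIM25 and SAMHD1, and the highest for EIF2AK2. Resistant 3 and susceptible 3 were the birds with 0 fragments on chromosome W. In these birds LY6E stood at 728 and 667 FPKM, TRIM25 at 28.0 and 22.0, Mx at 32.7 and 43.2 and IFI27L2 at 18.1 and 29.5. CMPK2 stood there at 49.7 and 27.8, EIF2AK2 at 26.6 and 15.8, ADAR at 8.08 and 4.55 and SAMHD1 at 1.04 and 8.10. Resistant 3 lay above susceptible 3 for 5 of the 8 genes, against 47.1% of all genes tested, and below it for Mx, IFI27L2 and SAMHD1. Among the 4 birds with chromosome W fragments, both resistant birds lay above both susceptible birds for 6 of the 8 genes, all but EIF2AK2 and SAMHD1. That arrangement held for 16.8% of all genes tested. In those 4 birds the log2 fold change was 2.23 for Mx, 4.17 for IFI27L2, 1.12 for LY6E and -0.22 for SAMHD1, and 0 genes passed limma at an adjusted p under 0.05. There 834 of 9626 genes had an unadjusted limma p under 0.05. None of these were among the 8 genes, whose unadjusted limma p lay between 0.0889, for LY6E, and 0.768, for SAMHD1.

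Likeness to Mx was measured as the root mean square distance between log2 deviations over the 6 birds. It was computed for 4267 named genes with a mean of at least 5 FPKM and no listed 0, with a median distance of 1.44. CMPK2 came first, at 0.43, and TRAPPC12, AMMECR1L and MRPS9 were among the nearest, at 0.51 to 0.55. TRIM25 ranked 11, EIF2AK2 25 and LY6E 30, while ADAR ranked 705. This order turned on susceptible 2: over the other 5 birds LY6E ranked 7 and TRIM25 12, and CMPK2 ranked 121.

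**Figure D4:**
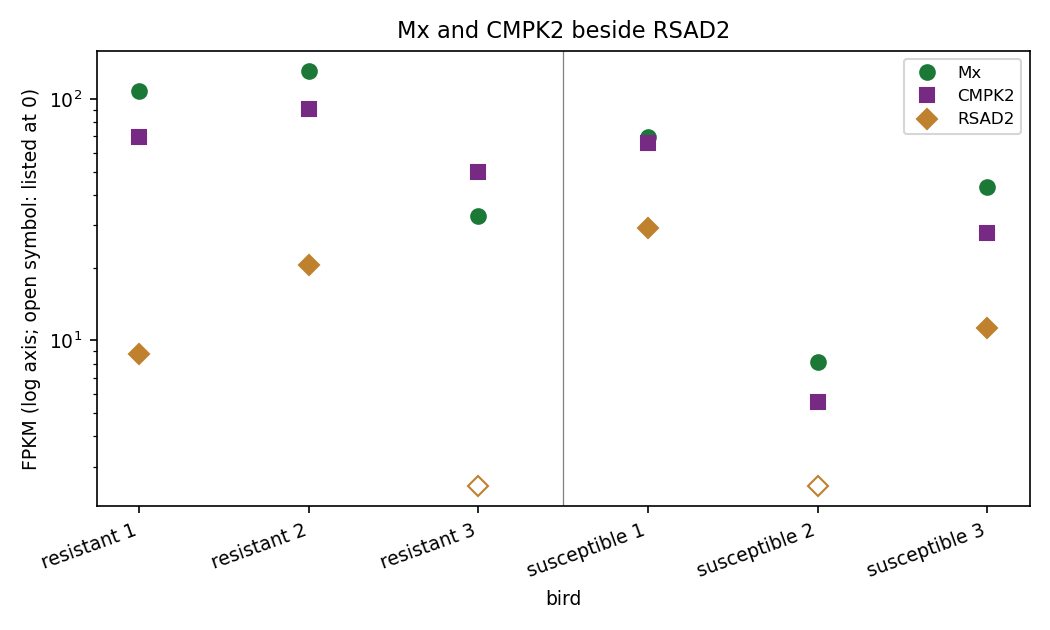
FPKM of Mx, CMPK2 and RSAD2 in each bird on a log axis, with open symbols for values listed at 0. Mx and CMPK2 are both lowest in susceptible 2, at 8.15 and 5.58 FPKM, and highest in resistant 2, at 130.1 and 91.3, whereas RSAD2 has its highest value in susceptible 1.

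RSAD2, which encodes the antiviral enzyme viperin, is the neighbour of CMPK2. It is at chr3:94589239-94594293 on the opposite strand, with 5055 bases between the genes. Levels were 8.82, 20.6 and 0 FPKM for resistant 1 to 3, against 29.3, 0 and 11.2 for susceptible 1 to 3. Susceptible 1 was the highest, and the birds of both groups were mixed. The ratio of RSAD2 to CMPK2 was 0.127 and 0.225 in resistant 1 and 2 and 0.444 and 0.404 in susceptible 1 and 3. It was 0 in resistant 3 and susceptible 2, where RSAD2 was listed at 0. The log2 fold change of RSAD2 was -0.27 (SE 1.44).

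Other interferon-stimulated genes had a smaller median difference than the 8 genes. Both sets were chosen with earlier results of these data known, so this contrast is a description only. Of 51 other interferon-stimulated genes listed, 26 were in the table under those symbols and 22 were tested, 13 higher and 9 lower in resistant birds by mean log2 level. Their median log2 fold change was 0.10, beside 0.05 over all genes tested, and 0 passed limma over all genes. It was 0.53 without susceptible 1, 0.43 without susceptible 3, 0.38 without resistant 2 and 0.24 without resistant 3, beside 0.11, 0.09, 0.15 and 0.01 over all genes. It was 0.15 without resistant 1 and 0.13 without susceptible 2. Restricted to the chromosome W carriers it was 0.47, beside 0.02 over all genes. At an unadjusted p under 0.05 their count was 0, against 3.87% of all genes. All resistant birds lay above all susceptible birds for 4 of the 22 with TAP1 not counted: NMI, C1S, PNPT1 and PARP12. The share over all genes was 4.44%, and PNPT1 and PARP12 were named after their values were seen. C1S and PARP12 were parted narrowly, with lowest resistant values of 737 and 30.7 FPKM and highest susceptible values of 729 and 29.2. TAP1, at 1.47, 0.262 and 2.30 FPKM against a listed 0 in each susceptible bird, passed the filter on low values only through its resistant birds. It remains in the 22, in the 13 higher and in the median. NMI, a protein induced by interferon in mammals, held 23.4, 15.1 and 17.2 FPKM in resistant 1 to 3 against 6.20, 8.06 and 11.4 in susceptible 1 to 3. TRIM14, an adaptor of antiviral signalling in mammals, was the 1 gene of the 22 with all resistant birds below all susceptible birds. It was at 3.29, 0 and 0 FPKM against 4.85, 6.60 and 4.88, and 3.98% of all genes tested had that arrangement. PARP9 had 42.5, 35.1 and 24.9 against 28.9, 19.4 and 12.7, which overlapped. The abundant B2M, the light chain of MHC class I, had means of 933 ± 209 and 687 ± 153 FPKM (SD, n = 3), and C1S of 751 ± 21.9 and 584 ± 178. Of the 14 genes of this list above 0 in all birds, susceptible 2 was the lowest bird for 8. Among all tested genes above 0 in all birds it was the lowest for 20.5%.

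Sensors and adaptors that start interferon synthesis were split evenly, with 5 of 10 tested genes higher and 5 lower, a median log2 fold change of 0.09 and 0 past the adjusted threshold or an unadjusted p under 0.05. DHX58, a cytosolic RNA sensor of the RIG-I family, had the smallest limma p of them, 0.061 unadjusted. It held 3.55, 5.75 and 1.73 FPKM in resistant 1 to 3 against 0, 0 and 1.32 in susceptible 1 to 3. DHX58 thus passed the filter on low values only through its resistant birds. TLR3, the endosomal sensor of double-stranded RNA, held 32.0, 53.2 and 18.7 FPKM in resistant 1 to 3 against 39.2, 12.8 and 19.5 in susceptible 1 to 3. IFIH1, the sensor MDA5, had 16.4, 5.89 and 5.25 against 19.1, 5.51 and 1.07. In both genes the groups overlapped and susceptible 1 lay above resistant 1.

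Of 14 interferon receptors and signal transducers counted, 10 were in the table and tested, 5 higher and 5 lower, with a median log2 fold change of -0.01. 0 passed limma at the adjusted threshold and 0 had an unadjusted p under 0.05. IFNGR1, a chain of the interferon gamma receptor, held 36.8, 42.5 and 68.4 FPKM in resistant 1 to 3 against 17.3, 14.7 and 46.7 in susceptible 1 to 3. IRF2 had 60.2, 52.3 and 90.8 against 63.1, 33.6 and 38.1. JAK1, the kinase shared by several of these receptors and the most abundant of the list, had 72.9, 105 and 103 against 133, 89.2 and 157. IFNLR1, the receptor of interferon lambda, had 32.8, 12.5 and 0 against 14.2, 26.0 and 15.0. JAK1 and IFNLR1 had a lower mean log2 level in resistant birds, and the groups overlapped in each. Of the 8 receptors and transducers above 0 in all birds, susceptible 2 was the lowest bird for 5. Among the sensors and adaptors above 0 in all birds it was the lowest for 2 of 7. The share among all such genes tested was 20.5%.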

How the data were processed

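Liver RNA of 3 resistant and 3 susceptible chickens was analysed, with groups and bird numbers from the sample titles and table columns matched by bird number. The authors computed the FPKM before deposit. As tools the submitters' processing notes list HISAT2 2.0.4, cutadapt 1.9.3, Cuffdiff and Cufflinks, and as build galGal4, with no role for each. The authors also deposited a scaled signal, named counts per the file headers. In each bird at least 99.3% of its values above 0.1 came within 0.02 steps of a whole number of steps, and a step is read here as 1 fragment. Coordinates are the table's, with starts raised by 1. The handling of shared reads and of strand is not given in the sources used. No gene of the table overlapped any of the 8.

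limma 3.58.1 in R 4.3.3 (lmFit, eBayes with trend) was fitted to log2(FPKM + 1) over the 9626 genes whose FPKM averaged 0.5 or more, resistant minus susceptible, 2-sided, with Benjamini-Hochberg adjustment over all of them at 0.05. The added 1 makes fold changes of low genes too small. SDs and means were taken on FPKM. No count model was run. Tested on simulated data, the fit returned the sizes of change put in, but the smaller ones did not pass the threshold. Those smaller changes were of the size seen in most of the 8 genes, so true differences of that size would be missed. Counting intervals are exact Poisson intervals at 95%. The 8 genes and the lists were chosen with earlier results of these data known. Genes named beside the 8 were the 4 with the smallest p and the 2 most abundant of each list, RSAD2, and the genes most like Mx. Not all are described, and 1 gene of the receptor and transducer list is not reported here and was left out of that list's counts and of the likeness values printed. The text says where another gene was chosen after its values were seen. C1QA was also chosen so, while C1QB was among the 4 macrophage markers with the smallest p. Listed symbols that matched no row were not analysed here. The table had 0 columns of other samples. Plots used Python 3.11.15 and matplotlib 3.10.9.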

Additional observations from a re-analysis of the deposited data

How the results depend on the processing

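Under 15 alternatives (14 for SAMHD1, which a filter of 5 FPKM removes) each of the 8 genes kept its direction and 0 genes of the table passed the adjusted threshold. The alternatives were a pseudocount of 0.1, no filter or one of 5 FPKM, median-ratio rescaling, quantile normalization and a replicate block. Others were listed 0s as missing, scaled counts, the birds with chromosome W fragments and leaving out each bird. A change of filter or the replicate block cannot alter the log2 fold change of a gene, only its p. Among the 8 genes, treating listed 0s as missing alters it for IFI27L2 alone. Leaving out 1 bird at a time gave log2 fold changes of 0.49 to 1.97 for Mx, 0.27 to 1.60 for EIF2AK2, 0.75 to 1.20 for ADAR, 0.65 to 2.33 for CMPK2, 0.86 to 3.49 for IFI27L2, 0.56 to 1.19 for LY6E, 0.65 to 1.49 for TRIM25 and -1.20 to -0.51 for SAMHD1. The median of the 8 genes then ran from 0.61 to 1.54. That of the other interferon-stimulated genes ran from 0.13 to 0.53, the highest without susceptible 1, beside 0.11 over all genes, and the cause was not tested. With the bird number as a replicate block, 0 genes passed and 458 had an unadjusted limma p under 0.05, against 373. The log2 fold changes, 1.36 for Mx and 1.04 as the median of the 8, could not change there. Birds of the same number had correlated deviations of 0.01, 0.09 and 0.33, and not every bird matched its own number best. The labels do not say whether the numbers pair the birds. Deviations from a mean of 3 birds are not independent of each other, so these correlations cannot decide it. An edgeR test on recovered fragments was not run, because the scaled counts hold a few values far below 1 step, and no promoter sequence was searched. Counting error bears most on SAMHD1, IFI27L2, ADAR and the low values of EIF2AK2 and Mx in susceptible 2.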

Other observations

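ISG12(2), a relative of IFI27L2 on chromosome 2 and named after its values were seen, was far more abundant, with a mean of 789 FPKM over the 6 birds. Resistant 1 to 3 held 1867, 1402 and 54.6 FPKM, against 936, 65.2 and 412 for susceptible 1 to 3. Its lowest bird was resistant 3 and not susceptible 2, and its log2 fold change was 0.84 (SE 1.31) with all birds and -0.24 without susceptible 2. No source used here says how reads shared by ISG12(2) and IFI27L2 were assigned.

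The 8 genes lie on 7 chromosomes. The 16 nearest tested genes on either side of them were a set chosen after the data were seen. Of these, 2 had susceptible 2 as their only lowest bird, COLEC11 and TOP1MT, each at a listed 0. Several others, RSAD2 among them, were tied at listed 0s and could not be counted. No like share over all genes was computed. Among tested genes above 0 in all 6 birds, a set without COLEC11 and TOP1MT, susceptible 2 was the lowest for 20.5%. TMPRSS2, a membrane serine protease and the next tested gene after Mx, ran from 9.94 to 13.7 FPKM over the resistant birds and had 3.62, 9.59 and 1.82 in susceptible 1 to 3. All resistant birds lay above all susceptible birds, narrowly in the case of susceptible 2, and the unadjusted limma p of TMPRSS2 was 0.124. TOP1MT, the next tested gene after LY6E, had the same arrangement, with a smaller unadjusted limma p of 0.0459. Among all genes tested 4.44% had that arrangement.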
